A study of Mus musculus with 6 samples.

Results

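The MAP kinase phosphatases and Sprouty-type inhibitors are inducible brakes on growth factor signalling, and 9 of their genes, with the early response gene Ier3, were followed here in Lbeta T2 cells given activin A. The 10 genes were Dusp1, Dusp2, Dusp4, Dusp5 and Dusp6, the Sprouty genes Spry1, Spry2 and Spry4, the Sprouty-related gene Spred1, and Ier3. They were taken by name, with every probe set of each, from 18193 genes that had a probe set of their own on the array, and 21 probe sets carried the 10 genes. Lbeta T2 is an immortal mouse pituitary line of gonadotrope type. The cells had been held for 16 h in medium free of phenol and serum, and then received recombinant human activin A at 30 ng/ml or vehicle for 1, 2 or 6 h. Each of the 6 combinations of treatment and time was 1 culture on 1 Affymetrix mouse array, so each single-time ratio is unreplicated and precision is limited by how few arrays there were.

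When a growth factor or hormone activates the ERK, JNK or p38 MAP kinases, the kinases switch on genes that in turn shut the signal down. Dual-specificity phosphatases remove the phosphates from the tyrosine and threonine of the kinase's activation loop: Dusp1, Dusp2, Dusp4 and Dusp5 act in the nucleus and Dusp6 in the cytoplasm, with Dusp5 and Dusp6 directed mainly at ERK. Sprouty and Spred proteins act further up, between the receptor tyrosine kinase and Raf. Ier3 is an early response gene whose product lengthens ERK activity by keeping a phosphatase away from the kinase. In gonadotropes ERK is a main route from the GnRH receptor to the gonadotropin genes, and activin signals chiefly through Smad proteins.

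The promoters of the 3 members whose time-averaged values lay farthest from 0 are shown for orientation, as the 250 bases upstream of each gene start in RefSeq, build GRCm38.p6. The table of promoters matched 8 of the 10 members. Capitals mark, on either strand, the cyclic AMP response element TGACGTCA, its core TGACG, the Smad box CAGAC and the kappaB site. The windows lie at chr17:26508473-26508722 on the minus strand for Dusp1, chr17:35821463-35821712 on the plus strand for Ier3 and chr2:127335909-127336158 on the plus strand for Dusp2.
Dusp1: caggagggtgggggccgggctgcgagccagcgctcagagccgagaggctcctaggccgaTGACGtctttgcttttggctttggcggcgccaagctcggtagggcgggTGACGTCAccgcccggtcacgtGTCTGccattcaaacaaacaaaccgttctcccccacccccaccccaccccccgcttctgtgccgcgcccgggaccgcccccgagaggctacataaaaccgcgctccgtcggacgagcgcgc
Ier3: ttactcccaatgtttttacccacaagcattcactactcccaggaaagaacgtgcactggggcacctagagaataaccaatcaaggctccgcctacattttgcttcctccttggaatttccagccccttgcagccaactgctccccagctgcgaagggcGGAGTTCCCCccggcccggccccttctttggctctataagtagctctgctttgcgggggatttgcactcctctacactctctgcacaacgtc
Dusp2: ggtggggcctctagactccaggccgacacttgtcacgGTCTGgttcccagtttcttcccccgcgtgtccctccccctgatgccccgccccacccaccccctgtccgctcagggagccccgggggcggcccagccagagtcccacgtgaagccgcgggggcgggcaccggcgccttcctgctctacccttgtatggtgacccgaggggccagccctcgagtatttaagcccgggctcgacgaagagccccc
Of the 8 windows, that of Dusp1 alone held the full cyclic AMP response element, which starts at −143 from the gene start and contains 2 of its 3 matches to the core. The full element occurred in 1.5% of 32851 mouse promoter windows of the same length and the core in 17.8%. A Smad box was found in the windows of Dusp1 and Dusp2, starting at −121 and −213, and in 42.2% of all windows. The kappaB site of Ier3 starts at −92, overlapping a GC box at −96, and 7.3% of all windows held such a site. Dusp5 had 2 CArG boxes at −82 and −72, a motif present in 1.5% of windows. The TATA box TATAAA was in none of the 8 windows and in 12.4% of all. The 8 windows held between 54.4% and 70.8% G and C, against a median of 52.4% over all windows, so shares of GC-rich motifs are not like for like. The GC box GGGCGG was in 6 of the 8 windows and 32.7% of all, and the E-box CACGTG in 2 of the 8 and 6.0% of all. These matches describe letters in a window and not bound sites.

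The deposited signals had medians between 151 and 166.4 on the 6 arrays. Gonadotrope genes were bright: the alpha subunit gene Cga read between 11889 and 16715 and the GnRH receptor gene Gnrhr between 2493 and 3638. Fshb, which encodes the beta chain of follicle-stimulating hormone, stayed between 6.4 and 78.4 on all arrays, under the filter value of 155.2. The filter value is the median over probe sets, a cut chosen here and not a limit of detection. Of 5 markers of other pituitary cells, the growth hormone and prolactin genes Gh and Prl were under it and Pou1f1 was not matched, while the thyrotropin gene Tshb, at 399.5 to 520.8, and the proopiomelanocortin gene Pomc, at 159.3 to 315, passed. The log2 ratios of Pomc over the 3 times were −0.03, 0.11 and 0.98. Of 6 markers of fibroblasts, endothelium and blood cells 4 passed the filter, with summed signals of 2525 to 3242 on the activin arrays and 2459 to 2763 on the vehicle arrays and none at 0. The mean log2 ratios of the 4 lay on both sides of 0, at 0.72 for Pecam1 and −0.04 for Cdh5, both adhesion genes of endothelium, −0.37 for the macrophage receptor gene Csf1r and 0.03 for the collagen gene Col1a2. The part of these markers in the results was not tested. As a check of the treatment, 6 of 6 listed activin and TGF-beta targets were higher with activin at an unadjusted p under 0.05 (Spsb1, Skil, Inhbb, Cdkn2b, Smad7 and Klf10), though this list was known to respond in these data. A control probe set for 18S ribosomal RNA, at its 5′ end, had a signal of 12202 in the activin sample at 1 h, beside 610 in its vehicle partner and no more than 1171 elsewhere, so the 1 h ratios come from an array that stood apart, and time-averaged values are also given without that time.

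Of the 10 genes 5 passed the filter, beside 11408 of the 18193 genes on the array. Genes that passed are called measured. Dusp1, Dusp2, Spry1, Spred1 and Ier3 passed the filter on mean signal, through 11 of the 21 probe sets, and Dusp4, Dusp5, Dusp6, Spry2 and Spry4 did not. The mean effect of activin over the 3 times was estimated in limma, with time as a second additive term, for 11408 genes, each represented by its brightest probe set. No gene passed at a Benjamini-Hochberg adjusted p of 0.05 (0% of genes called, smallest adjusted p 0.305), and so no member did. Among the members, Dusp2 and Spred1 were higher and Dusp1 and Ier3 lower with activin at an unadjusted p under 0.05. Of these 4, Ier3 passed the filter only through its vehicle arrays, and Dusp1 alone stayed under that level in all 13 alternative settings. Dusp2 did so in 11 of 13, Ier3 in 9 of 11 and Spred1 in 7 of 13, with unadjusted p up to 0.051, 0.082 and 0.41. That level was reached by 10.5% of all genes, 4.15% higher and 6.32% lower. As the members were chosen with earlier results of these data known, their count is a description.

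Dusp1, which encodes the nuclear phosphatase MKP-1 and acts on p38 and JNK as well as ERK, was lower with activin at every time. Its signal was 552.6, 545.7 and 396.8 on the activin arrays at 1, 2 and 6 h, against 776.8, 664.9 and 677.6 on the vehicle arrays. The activin values all lay below the vehicle values, and the lowest of the 6 was the activin array at 6 h. An arrangement with all 3 activin arrays below all 3 vehicle arrays was found in 9.7% of the 11408 genes. The activin signal was lower 1.41-fold, 1.22-fold and 1.71-fold at 1, 2 and 6 h. The highest vehicle value was 1.17 times the lowest. The mean log2 ratio was −0.52 ± 0.12 (moderated SE, 3 pairs of arrays, 95% interval −0.82 to −0.21, limma adjusted p = 0.416). Without the 1 h arrays it was −0.53. In RNA from whole cultures, fewer cells with a transcript and less of it per cell cannot be told apart.

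Dusp2, the gene of the nuclear phosphatase PAC-1, was higher with activin at every time. It read 886, 568.6 and 464.8 with activin at 1, 2 and 6 h and 451.8, 404.8 and 401.8 with vehicle. All 3 activin values were above all 3 vehicle values, as in 5.33% of genes, and the gap was widest at 1 h and narrowest at 6 h. The log2 ratios were 0.97, 0.49 and 0.21, the first a 1.96-fold and the last a 1.16-fold difference. The authors' deposited table lists Dusp2 at 1 h with a fold of 1.55, smaller than the ratio of the deposited signals. It is the only member found in those tables, which are partial lists. The mean log2 ratio was 0.56 ± 0.16 (95% interval 0.14 to 0.97, limma adjusted p = 0.426), and 0.35 without the 1 h arrays, where the bright 18S control was seen. Whether the effect differed between times was not tested, since a time has 1 array per treatment.

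Ier3 was also lower with activin at each time, on signals close to the filter value. It read 89.1, 134.6 and 173 with activin at 1, 2 and 6 h, against 139.2, 198.2 and 247.9 with vehicle. At every time the activin array was the lower of the pair, but the groups overlapped because in both treatments the signal was lowest at 1 h and highest at 6 h. Being lower at all 3 times was common, at 22.1% of genes, and being higher at all 3 was found in 12.1%. The log2 ratios were −0.64, −0.56 and −0.52. They gave a mean of −0.57 ± 0.08 (95% interval −0.79 to −0.36, limma adjusted p = 0.354). Without the 1 h arrays the mean was −0.54. With signals under the filter value raised to it, the ratio of activin to vehicle became 1.00 at 1 h, 0.78 at 2 h and 0.70 at 6 h, so the 1 h difference lies wholly under that value. Fitted on signals raised in this way, the mean was −0.29 ± 0.12 with an unadjusted p of 0.061. The SE of the unraised mean was 0.21 with limma-trend and 0.28 without time in the model, where its unadjusted p was 0.082. The mean log2 signal of Ier3, 7.28, was the closest of any passing member to the filter. Its mean signal was 132.2 on the activin arrays, under the filter value, and 195.1 on the vehicle arrays. Ier3 thus entered the fit only through the group in which it was higher.

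Spry1, a Sprouty gene, showed no steady difference. Its signal was 261.8, 381.2 and 365 with activin at 1, 2 and 6 h and 338.8, 344.3 and 377.7 with vehicle. The activin array was lower at 1 h, higher at 2 h and close to vehicle at 6 h, and the groups overlapped. The mean log2 ratio was −0.09 ± 0.12 (95% interval −0.41 to 0.23, limma adjusted p = 0.825), and it was 0.05, −0.21 and −0.11 without the 1, 2 and 6 h arrays. The interval leaves room for a difference of either sign.

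**Figure D1:**
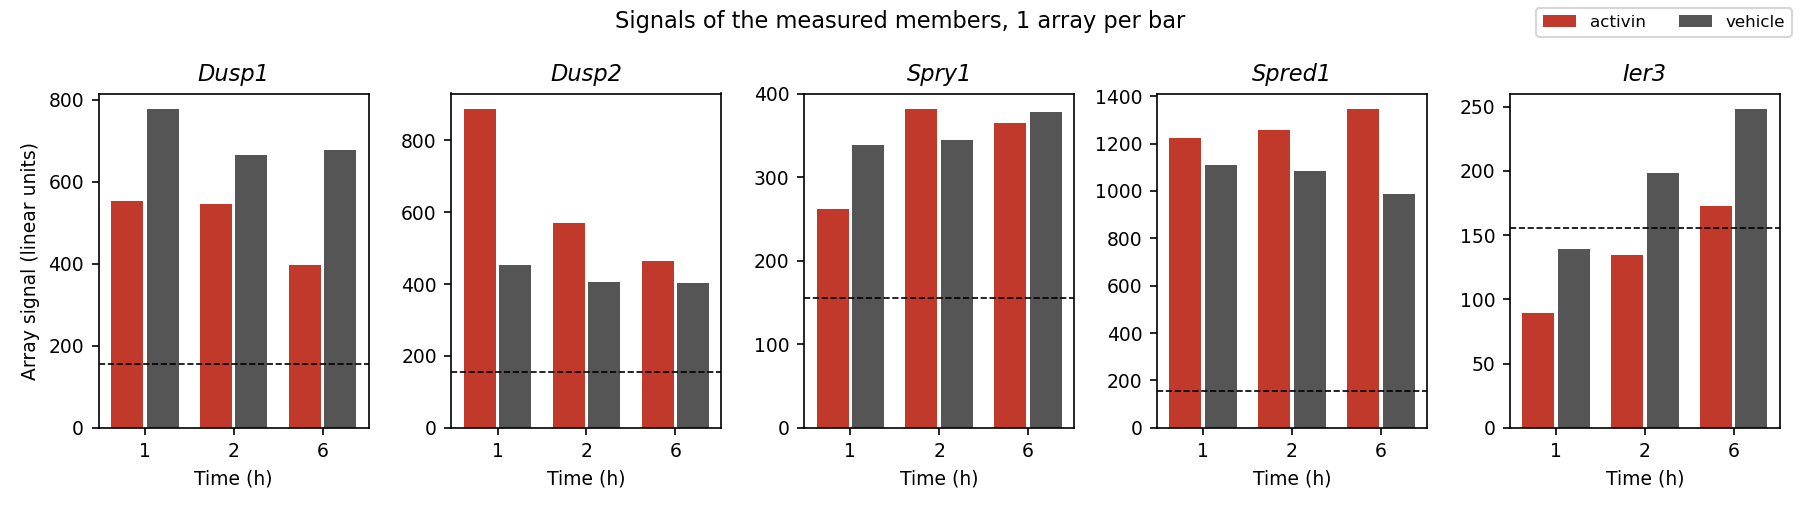
Signals of the 5 measured members (y axis, linear array signal, a scale of its own for each gene) at 1, 2 and 6 h (x axis), with 1 array per bar, activin left and vehicle right, and the filter value of 155.2 as a dashed line. Activin bars are below vehicle at each time for Dusp1 and Ier3 and above it for Dusp2 and Spred1, and 3 of the 6 Ier3 bars are under the line.

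Spred1, whose product blocks Raf activation by Ras, was covered by 8 probe sets, of which 7 passed the filter. Probe sets of 1 gene are read from the same RNA on the same arrays, so they repeat the measurement and not the culture. The brightest, 1423161_s_at, read 1225, 1258 and 1344 with activin at 1, 2 and 6 h, against 1111, 1082 and 987.7 with vehicle. All 3 activin values were above all 3 vehicle values, an arrangement found in 5.33% of genes. Its folds were 1.10, 1.16 and 1.36, and its mean log2 ratio was 0.27 ± 0.10 (95% interval 0.01 to 0.52, limma adjusted p = 0.460), or 0.33 without the 1 h arrays.

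At 6 h, 6 of the 7 Spred1 probe sets were higher with activin, between 1.25-fold and 1.65-fold. At 2 h the same 6 lay between 1.06-fold and 1.32-fold, and at 1 h between 0.99-fold and 1.36-fold, with 4 above 1. Those of the 6 with the widest and the narrowest 6 h ratio were 1460116_s_at, which read 455.9, 423.6 and 599.9 with activin and 461.9, 401 and 363.4 with vehicle, and 1423160_at, which read 1177, 1324 and 1298 with activin and 866.5, 999.5 and 1035 with vehicle. The activin signals of 1423160_at were all above its vehicle signals, while those of 1460116_s_at overlapped with vehicle and stood out at 6 h. Those of 1423162_s_at and 1428777_at were also all above vehicle, and those of 1452911_at overlapped. For 1428777_at the margin was narrow, at 376.6 with activin against 375.6 with vehicle, both at 1 h. How many single probe sets on the array show the first arrangement was not computed, and Spred1 had 7 that could.

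The remaining Spred1 probe set, 1443652_x_at, was lower with activin at all 3 times. It read 401, 323.8 and 701.5 with activin at 1, 2 and 6 h, and 779.1, 573.6 and 722.6 with vehicle. Activin was 1.94-fold lower at 1 h and 1.77-fold lower at 2 h, with nearly equal signals at 6 h. The suffix x marks a set in which some probes also match other transcripts, and whether that bears on its values was not tested. What the suffix s of 1423161_s_at, 1423162_s_at and 1460116_s_at means for their values was likewise not tested. In a fit of all 19608 named probe sets past the filter, its mean log2 ratio of −0.61 ± 0.20 had an adjusted p of 0.440, and 1423160_at had 0.39 ± 0.09 with an adjusted p of 0.382. With the median of its probe sets in place of the brightest, the mean of Spred1 was 0.17.

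**Figure D2:**
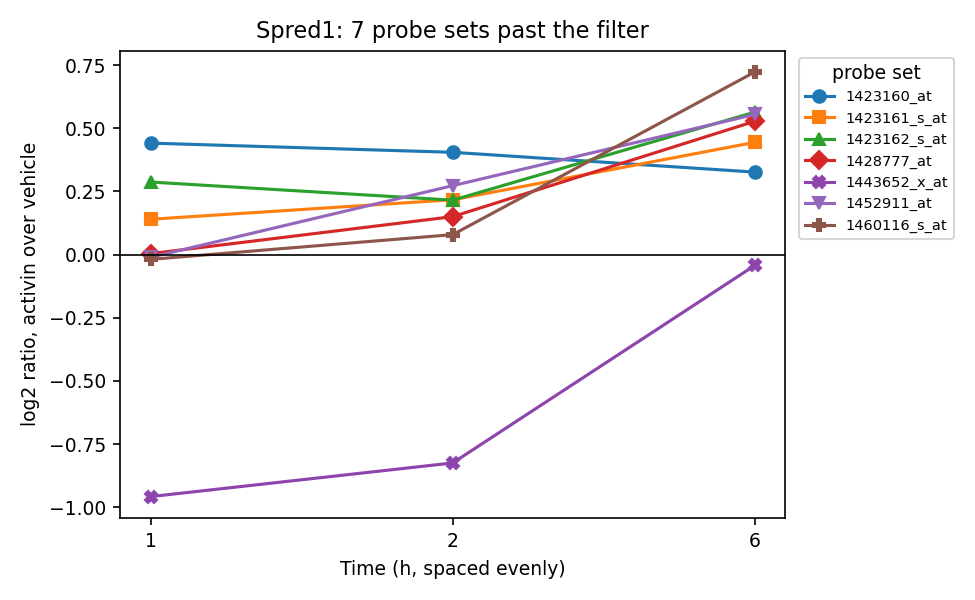
Log2 ratios of activin over vehicle (y axis) at 1, 2 and 6 h (x axis, evenly spaced) for the 7 Spred1 probe sets past the filter, 1 line each. At 6 h 6 lines are between 1.25-fold and 1.65-fold, while 1443652_x_at is below 0 at every time.

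The remaining members, Dusp4, Dusp5, Dusp6, Spry2 and Spry4, had 9 probe sets and not 1 signal above 119. Dusp6, the cytoplasmic ERK phosphatase gene that is commonly read as a gauge of ERK activity, was 41.1, 2.5 and 10.1 with activin at 1, 2 and 6 h and 119, 32.8 and 23.8 with vehicle. Activin was the lower of each pair, but all 6 signals were under the filter value and the vehicle arrays alone spanned 5-fold, so no size is given. Dusp4, the gene of the nuclear phosphatase MKP-2, read 4.6, 8.5 and 11 with activin and 30.6, 8.7 and 18.1 with vehicle. Dusp5, a nuclear phosphatase gene for ERK, lay between 15.1 and 23.8 on all arrays.

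Of the Sprouty genes in that group, Spry2 had 2 probe sets between 26.4 and 69.1. The probe set 1436584_at read 59.7, 42.3 and 69.1 with activin and 58.7, 35.1 and 26.4 with vehicle. Spry4 had 4 probe sets between 0.7 and 85.9. Of these, 1422020_at read 20.6, 28.8 and 12.6 with activin and 12.3, 11 and 5.6 with vehicle. In contrast, 1445669_at read 3.9, 2.4 and 0.7 with activin and 1.4, 15.3 and 4.2 with vehicle. Array signals at this level do not show whether the genes were silent or only weakly transcribed, and no detection calls were used here.

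**Figure D3:**
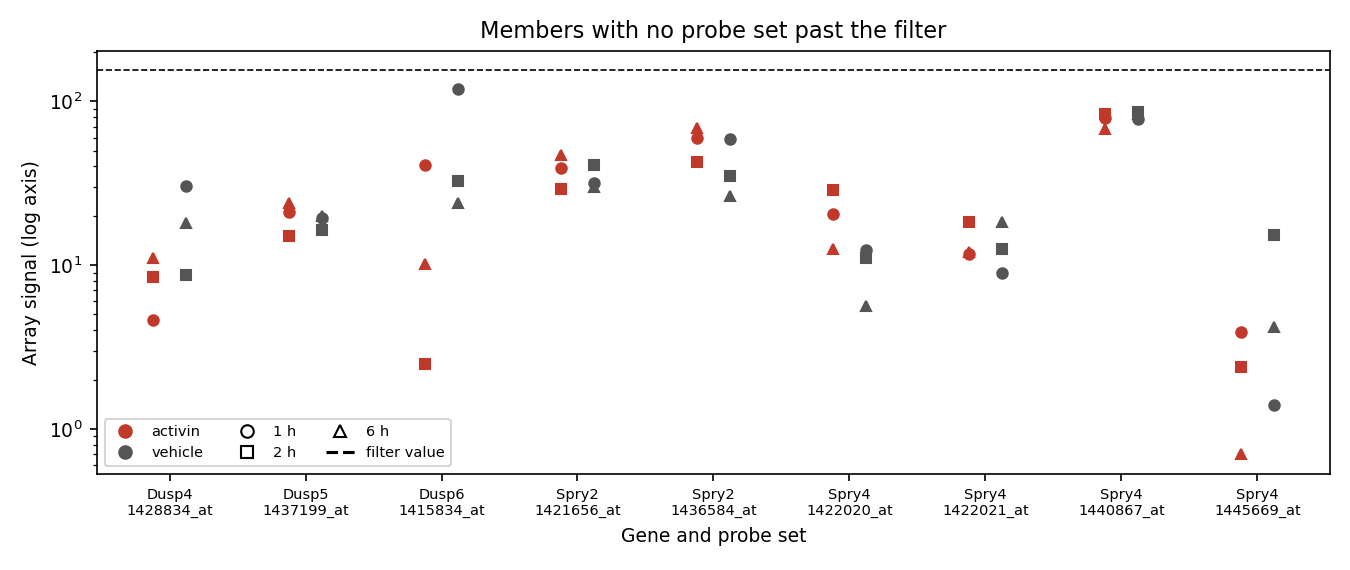
Signals (y axis, log scale) of the 9 probe sets of the 5 members that did not pass the filter (x axis), with activin left and vehicle right and a marker shape for each time. All points lie under the dashed filter value of 155.2.

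At single times, members at least 1.5-fold apart were counted among the 5 measured, by the brightest probe set of each gene. As the members were chosen with earlier results known, these counts are a description. At 1 h Dusp2 was past that fold upward and Ier3, on signals under the filter value, downward, against 2.31% and 2.91% of all genes (5.22% in either direction). At 2 h no member was past it by its brightest probe set, where 2.67% of genes were higher and 2.8% lower, 5.47% together. At 6 h Dusp1 was past it downward, against 3.16% of genes, and none upward, against 3.7% (6.85% in either direction). The median log2 ratio of the 5 measured members was −0.37, 0.15 and −0.05 at 1, 2 and 6 h, beside −0.04, −0.03 and −0.02 over all genes, and with members on both sides of 0 these medians describe no common course. By the same probe sets, Dusp1 was at least 1.2-fold lower at all 3 times, as were 1.21% of genes, and Ier3 was so by its deposited signals but not at 1 h once these were raised to the filter value. No brightest probe set of a member was that much higher at all 3 times, against 1.24% of genes, although 1423160_at of Spred1 was.

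The signals were also compared between times. Over both treatments, Ier3 was higher at 6 h than at 1 h by 0.89 ± 0.10 on the log2 scale (limma, 95% interval 0.63 to 1.16, unadjusted p = 0.000313, adjusted p = 0.465). The difference was 0.96 between the activin arrays of those times and 0.83 between the vehicle arrays, where 2.15% of genes reached 1.5-fold upward. Both 1 h signals of Ier3 were under the filter value and both 6 h signals above it, so the size of this difference is uncertain. Ier3 thus passed the filter only through its later arrays, where it was higher, and the p of this difference is no support for it. Dusp2 was lower at 6 h by −0.55 ± 0.20 (adjusted p = 0.497), made up of −0.93 between activin arrays and −0.17 between vehicle arrays. Dusp1 had −0.34 ± 0.15 (adjusted p = 0.534), Spry1 0.32 ± 0.15 (adjusted p = 0.553) and Spred1 −0.02 ± 0.12 (adjusted p = 0.974). Of all genes 0% passed the adjusted threshold, and 5.1% were higher and 4.62% lower at an unadjusted p under 0.05. By the brightest probe sets, the vehicle signals of Dusp1, Dusp2, Spry1 and Spred1 spanned at most 1.17-fold over the 3 times, against 1.78-fold for Ier3, and the other Spred1 probe sets past the filter spanned up to 1.36-fold.

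Across the 6 arrays, the pairwise Pearson correlations among the 5 members ranged from −0.91 (Dusp2 with Ier3) to 0.76 (Ier3 with Spry1), and Dusp1 with Ier3 had 0.16. These describe 6 arrays that share treatments and times. Among 1446 genes with an SD of at least 0.3 on the log2 scale, the gene whose 6 values were most like those of Dusp2 was Klf10, a Krüppel-like factor gene also known as a TGF-beta early gene (r = 0.988), followed by Rbm45 (0.982) and Cog7 (0.981). The log2 ratios of Klf10 at the 3 times were 0.85, 0.31 and 0.32, beside 0.97, 0.49 and 0.21 for Dusp2. Closest to Dusp1 were the potassium channel gene Kcnk3 (r = 0.976), Rrp9 (0.972) and Mob3b (0.963). Closest to Ier3 were Prr36 (0.995), Wdr81 (0.984) and Cd84 (0.967), and closest to Spred1 were Pcdh9 (0.989), Cpm (0.987) and Cmpk2 (0.975). These are the highest of 1446 correlations over 6 arrays, and values near 1 came up for every member compared. Shared regulation was not tested.

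The rest of the pathway was described with 7 further lists, of which 79 of 107 genes were measured. None of the 79 passed the adjusted test, 1 was higher and 6 were lower at an unadjusted p under 0.05 (8.86%, against 10.5% of all genes), and their median log2 ratio was −0.05, against −0.04 over all genes. Of the 6, Dusp16 and Map2k6 had mean log2 signals under the filter on the activin arrays and above it on the vehicle arrays. Like Ier3, they entered the fit only through the group in which they were higher, so their calls are no support for a decrease. Of 4 measured further MAP kinase phosphatases, Dusp16, whose product acts on JNK and p38, had the value farthest from 0. It read 204.8, 151.2 and 56 with activin at 1, 2 and 6 h against 214.8, 306.7 and 228.3 with vehicle, with 2 of the activin signals under the filter value, and its mean log2 ratio was −1.04 ± 0.36 (limma adjusted p = 0.452). With those signals raised to the filter value the mean was −0.54 and the 6 h ratio −0.56 in place of −2.03. Dusp10 had 0.14 and Dusp7 −0.11.

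Among 14 measured inhibitors of receptor tyrosine kinases and Ras, Dok1, an adaptor gene, had −0.44 ± 0.09 and the ubiquitin ligase gene Cbl −0.29 ± 0.09, both with unadjusted p under 0.05, while Rasa2, which encodes a Ras GTPase-activating protein, had 0.22. Spred2, the relative of Spred1, had −0.19. The 11 measured genes of the ERK cascade itself lay between −0.20 for Sos1 and 0.17 for Sos2, exchange factor genes for Ras, with Nras at −0.16 and none at an unadjusted p under 0.05. Among 16 genes of the JNK and p38 cascades, Tab1 had −0.43, Map2k6 −0.38 and Mapk9 0.34, and Map2k6, a kinase gene of the p38 branch, was the 1 with an unadjusted p under 0.05. Of its signals, both at 2 h (91.8 with activin and 133.5 with vehicle) and the activin one at 6 h (114.3, against 169.7 with vehicle) were under the filter value, and its mean with dim signals raised was −0.05.

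Transcriptional outputs of ERK lay on both sides of 0. Of 14 measured, the early gene Fos had 0.63 ± 0.16 and Myc −0.89 ± 0.10, and the serum response factor gene Srf had −0.33. The Fos log2 ratios at the 3 times were 1.04, 0.49 and 0.35, side by side with 0.97, 0.49 and 0.21 for Dusp2. Myc had −1.05, −0.79 and −0.82, side by side with −0.49, −0.29 and −0.77 for Dusp1. The median of the 14 was 0.04.

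**Figure D4:**
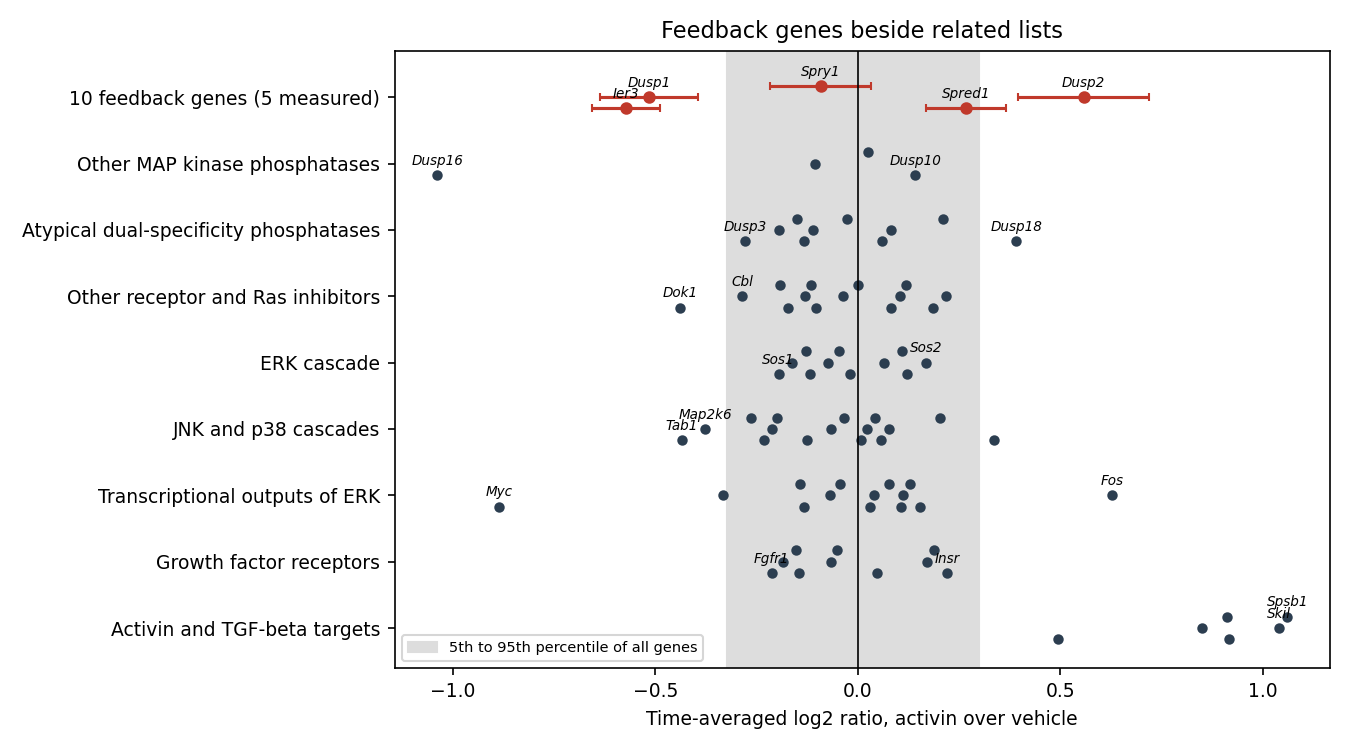
Time-averaged log2 ratios of activin over vehicle (x axis) for the 5 measured members, with bars of 1 moderated SE, and for measured genes of 8 related lists (rows), 1 point per gene, over a grey band from the 5th to the 95th percentile of all genes (−0.32 to 0.30). Dusp1 and Ier3 lie left of the band (Ier3 at −0.29, inside it, with dim signals raised), Dusp2 right of it and Spry1 and Spred1 inside it, and all ERK cascade genes are inside the band.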

How the data were processed

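Total RNA of 6 Lbeta T2 cultures, 1 for each treatment and time, was hybridised to 1 array each, and groups were taken from the sample titles. The authors deposited linear intensity values per probe set, made with GCOS 1.4 per the submitters' processing notes; neither settings nor detection calls are stated there. The deposited workbooks list selected genes with a signed fold per the file headers, used as a score because decreases carry a minus sign.

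Of 45101 probe sets, 64 controls were set aside and 34945 named 1 gene, with symbols updated through Entrez identifiers to RefSeq. Signals were taken to log2 with a pseudocount of 0, and probe sets with a mean over the 6 arrays above the median were kept, which left 19608 with 1 gene and 11408 genes by the brightest probe set. The time-averaged effect and the 6 h over 1 h difference came from 1 additive limma 3.58.1 model in R 4.3.3 (two-sided, with 3.06 prior and 2 residual degrees of freedom). Its code was run on simulated data with independent noise drawn from the fitted prior. That run cannot speak to unreplicated cultures, the activin 1 h array or an effect that changes with time. Nothing in the labels describes repeated cultures, so p-values measure only how the 3 array pairs vary, which may be technical. Intervals are 95% from the moderated t distribution.

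Members and lists were chosen with earlier results of these data known. Named genes were the members, the 3 largest mean ratios of the lists, and the 3 most similar profiles. Spred2, Map2k6's signals and the time courses of Fos and Myc were added after their values were seen. Promoters are from RefSeq, GRCm38.p6. Figures were drawn with matplotlib 3.10.9. Alternatives were no filter, a 70th percentile filter, a pseudocount of 50, median centring, quantile normalization, each probe set or their median per gene, leaving out each time, limma-trend with a robust prior, no block, a 2-fold threshold, and raising dim signals to the filter value.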

Additional observations from a re-analysis of the deposited data

Results flagged for a closer look

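Spry1 had log2 ratios of opposite sign at different times (−0.37 at 1 h and 0.15 at 2 h), a spread of 0.52. The difference between times was not tested, because each time has 1 array per treatment. In data outside the gene measurements, the 18S ribosomal RNA control for the 5′ end read 12202 on the activin 1 h array, where the vehicle 1 h array had 610. The 1 h ratios of all members rest on that activin array.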

How the results depend on the processing

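The mean log2 ratios of the 5 measured members kept their direction and stayed short of the adjusted threshold in 61 of 62 alternatives. The exception was Spry1, which turned to 0.0488 without the 1 h arrays. Many of these alternatives could not move a mean. Changing the filter, the block or the prior, or fitting each probe set, changes only the SE and the p. The median of probe sets likewise leaves a gene with 1 probe set as it was. The count of 61 is therefore no measure of how stable the directions are. Ier3 fell below the filter, and so had no value, at the 70th percentile and after quantile normalization; Spry1 likewise at the 70th percentile. Raising signals under the filter value before the fit, an alternative chosen after seeing the data, moved the mean of Ier3 to −0.29 and called 0 genes (1241 at an unadjusted p under 0.05). The unadjusted p passed 0.05 for Spred1 with no filter, median centring, the median of probe sets or any time left out, for Dusp2 without the 1 h or 2 h arrays, and for Ier3 without the block or with dim signals raised. The mean of Spry1 was −0.21 without the 2 h arrays, that of Dusp2 0.35 without the 1 h arrays, and that of Spred1 0.17 with the median of probe sets. The limma test called 0 genes (1195 at an unadjusted p under 0.05); it called 3 with the 70th percentile filter and 9 with limma-trend and a robust prior, with no member among them, and 0 with no replicate block. The adjusted p of a member lay between 0.195 and 0.939 over all alternatives. The 6 h over 1 h difference called 0 genes in every alternative run. Of members at least 1.5-fold apart at 1 h, 2 became 0 at 2-fold and 1 with dim signals raised, the 70th percentile filter, quantile normalization or a pseudocount of 50. At 6 h, 1 became 0 at 2-fold and 2 with the median of probe sets. With no filter the counts were 4, 1 and 4 at 1, 2 and 6 h, through members under the filter value. The 3 pairs of arrays and signals near the filter value limit what can be read for Ier3 and for the dim members.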

Other observations

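Atypical dual-specificity phosphatases are relatives of the MAP kinase phosphatases that lack their kinase-docking domain. The 10 listed here were all measured and had a median log2 ratio of −0.07. Dusp18 had 0.39 ± 0.16, with signals of 642.4, 638.2 and 681.9 with activin at 1, 2 and 6 h against 526.5, 367.4 and 641.1 with vehicle. Dusp3, which encodes the small phosphatase VHR, read 939.9, 954.1 and 686.8 with activin against 1120, 1067 and 921.4 with vehicle, lower at each time, with a mean of −0.28 ± 0.09 and a limma adjusted p of 0.444. Dusp26 had 0.21 ± 0.22, with ratios on both sides of 0.

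Of 19 growth factor receptor genes 10 were measured, none at an unadjusted p under 0.05. The insulin receptor gene Insr had 0.22, the vascular endothelial growth factor receptor gene Kdr 0.19 and the fibroblast growth factor receptor gene Fgfr1 −0.21.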
